A study of Mus musculus with 16 samples.

Results

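Microglial identity genes were measured here in pools of cells sorted for a reporter of parvalbumin (PV), a marker of a class of interneurons; microglia were not the cells the sort was set for. The 31 genes are those named as the microglial set, taken by gene symbol from the array's transcript clusters, of 30783 genes with a cluster of their own. Each member had 1 cluster. They comprise 8 homeostatic genes, 6 activation-associated genes, 3 genes of the complement component C1q, 10 immune signalling and lysosomal genes, 2 transcription factors, and the pair Tlr7 and Ly86.

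The study sorted tdTomato-labelled cells from the dorsal striatum (ST) and the motor and somatosensory cortex (CTX) of C57BL/6J mice aged 30 days and labelled male. The PVCre mice had the genotype PVCre/+; tdTomato/+, in which Cre recombinase made by parvalbumin cells switches on the red reporter. The PVwt mice had the genotype PV-tdTomato/+, in which the reporter is made without Cre. Each line gave 4 arrays of each region, 16 in all, and each array held RNA of 2000 cells pooled from 2 to 4 mice. Both lines carry a tdTomato reporter, and no group without one was analysed here. The labels name no batch, so line, reporter design and any difference in handling cannot be told apart.

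Microglia are the resident macrophages of the brain. In the undisturbed tissue they survey their surroundings with fine processes and express a homeostatic set of purinergic receptors, chemokine receptors and surface proteins, under the control of the transcription factor PU.1, which Spi1 encodes. After injury, infection or tissue dissociation they can lower parts of this set and raise receptors for microbial products, phagocytic genes and cytokines. Microglia lie close to neurons and are found in both the striatum and the cortex.

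Values are log2 levels, so a difference of 1 is a doubling. The highest of 23 antigenomic probe sets, which match no mouse sequence, was taken as the background of each array, and it lay between 5.74 and 6.61. Levels of different genes come from different probes and are not compared with each other; differences between groups are. Several arrays stood apart before any microglial gene was considered. Xist, the RNA of the inactive X chromosome, was high in 8 of the 16 arrays although every mouse was labelled male, in 6 PVCre and 2 PVwt arrays. Pvalb was low in 6 arrays, and the interneuron marker Gad1 reached only 8.88 and 7.40 in 2 PVCre cortical arrays, replicates 2 and 4. The separation of positive from negative control probe sets was 3.08 to 3.93 in PVCre arrays and 4.16 to 4.85 in PVwt arrays, with no overlap between the lines.

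Promoter sites are shown because PU.1 acts at many microglial genes; most members with a window held neither motif searched. A PU.1 motif, GAGGAAGT, and an ETS-IRF composite motif, GGAA and GAAA with 2 bases between them, were searched on both strands in RefSeq promoter windows of 300 bases (250 before to 50 after the gene start, GRCm38.p6). Of the 31 members, 22 had a window. The PU.1 motif was in 4 of the 22, C1qc, Cd53, Apbb1ip and Ctss, against 997 of 27025 genes overall (3.69%). The composite motif was in 1 of the 22, Cd68, against 853 genes (3.16%). Each site below is 30 bases on the gene's strand, with the motif in capitals. All 5 motifs lay on the opposite strand, so they read as ACTTCCTC or TTTCATTTCC.
C1qc, chr4:136893091-136893120, minus strand: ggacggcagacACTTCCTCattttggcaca
Cd53, chr3:106790125-106790154, minus strand: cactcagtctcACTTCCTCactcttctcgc
Apbb1ip, chr2:22774321-22774350, plus strand: gggctcaaagcACTTCCTCctccctgagcc
Ctss, chr3:95526773-95526802, plus strand: aatgaaagttcACTTCCTCattgtggatgc
Cd68, chr11:69666128-69666157, minus strand: aagtgaggctTTTCATTTCCtcttccaaga
These matches describe letters in the window, not binding. One of the genes with the PU.1 motif, Apbb1ip, was the only member that did not pass the test between the lines.

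In both regions, 30 of the 31 microglial genes were higher in PVCre than in PVwt arrays, and none was lower (limma adjusted p under 0.05 over 20522 genes). Among all genes tested, 18.3% were higher and 35.0% lower in striatum (53.4% either way), and 19.2% were higher and 34.4% lower in cortex (53.6% either way). The median difference of the 31 genes was 3.03 in striatum and 3.57 in cortex, while the median over all genes was -0.22 in each region. The 4 PVCre arrays lay wholly above the 4 PVwt arrays for 29 members in striatum and 30 in cortex, against 17.1% and 17.4% of all genes. No member lay wholly below, against 33.2% and 29.7% of all genes. In striatum Gpr34 and Apbb1ip overlapped, and in cortex Apbb1ip. All 31 members passed the filter on low values, but 18 in striatum and 17 in cortex had a PVwt mean below its limit of 5.53 and passed through the PVCre arrays. With no filter, 30 members were again called in each region, against 22.7% and 24.1% of 30783 genes.

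**Figure D1:**
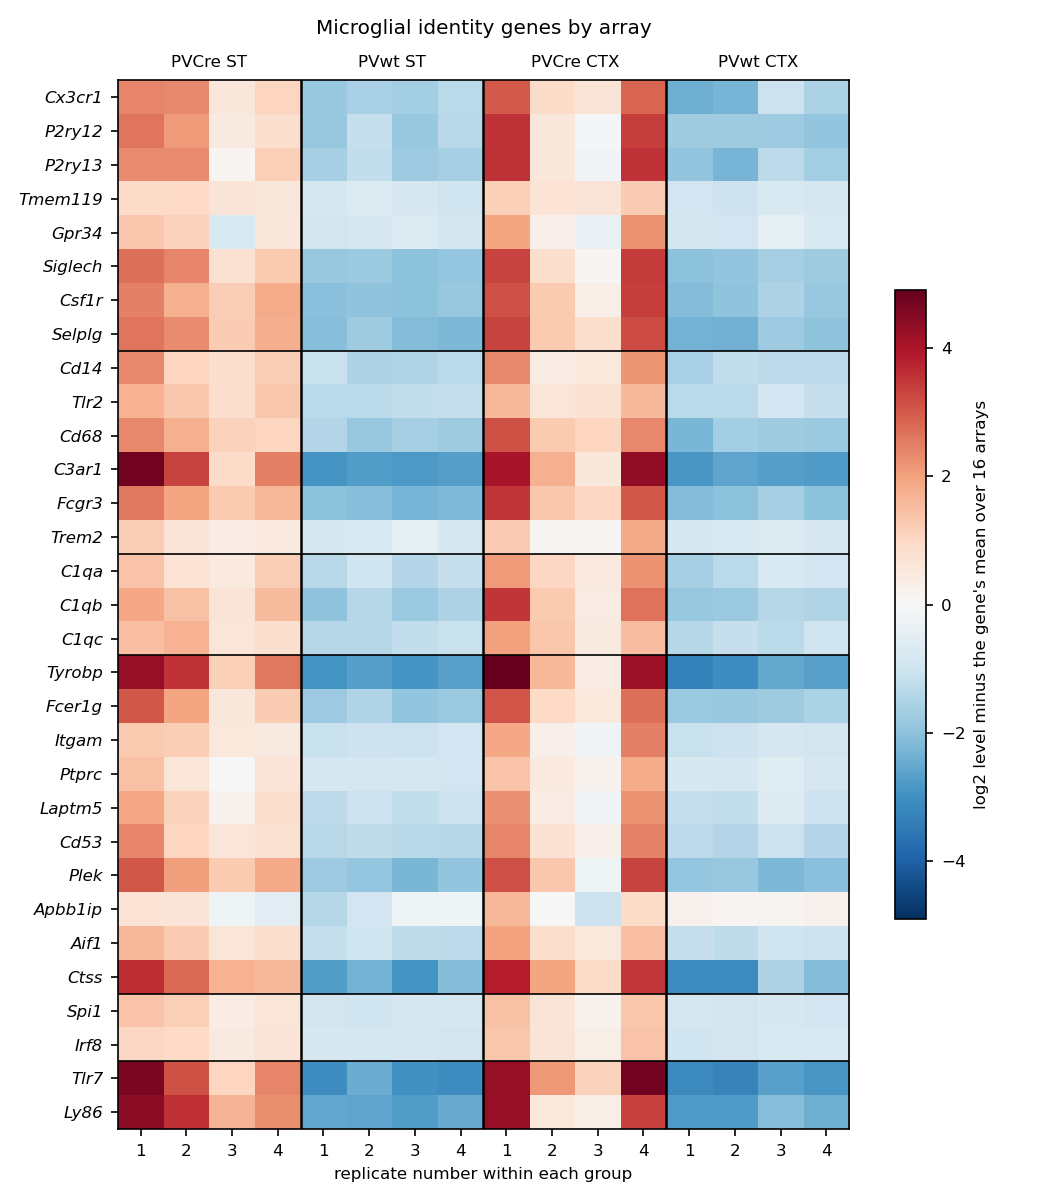
Log2 level of each microglial gene in each of the 16 arrays minus that gene's mean over the 16 arrays (red above, blue below), with genes grouped by role and PVCre placed left of PVwt for striatum (ST) and cortex (CTX). PVCre arrays are red for nearly every gene, and replicates 1 and 4 of PVCre cortex stand above replicates 2 and 3 for all 31 genes.

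Most of these genes were at background in PVwt cells. In striatum, no PVwt array was above background for 25 of the 31 members, and in cortex for 24. All 4 PVCre arrays were above background for 27 members in striatum and 26 in cortex, and every member was above it in at least 1 PVCre array of each region. The lines were counted against unlike limits. The background averaged 5.99 in PVCre and 6.42 in PVwt striatum, and 6.27 in PVCre and 6.38 in PVwt cortex. The same counts over all genes are not given here. For a gene with no PVwt array above background, the fold given is the PVCre mean against a PVwt floor. The floor is the mean, over PVwt arrays, of the higher of the array's background and its own level. This fold is a lower bound where all 4 PVCre arrays were above background, and it carries no error. Gpr34, Trem2, Ptprc and Irf8 in both regions, and Tlr2 in cortex, had PVCre arrays within background. Their values are not strict bounds. Over all genes with no PVwt array above background, the values ran from 1.04 to 30.7-fold in striatum (median 3.07). In cortex they ran from 1.25 to 37.7-fold (median 3.48). The lowest values, of Ptprc in striatum and Irf8 in cortex, are among those that are not strict bounds. In such pools, fewer microglia and less RNA from each cannot be told apart.

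The control separation did not overlap between the lines, so a fit that holds both line and separation tells them apart poorly. Calls lost in such a fit do not show a cause. Fewer members were called with the separation in the fit than without. With this separation as a covariate, 13 members were called in striatum and 20 in cortex, with a median difference of 2.21 in striatum and 2.74 in cortex. Among all 20522 genes, 5639 were called in striatum in that fit (2122 higher) and 5432 in cortex (2134 higher), against 10954 and 10993 without the covariate. Of the members called without it, 17 in striatum and 10 in cortex were no longer called. P2ry12, P2ry13, Gpr34, Siglech, Trem2, Itgam, Ptprc, Laptm5 and Cd53 lost the call in both regions. Cx3cr1, Cd14, C1qa, C1qb, Tyrobp, Fcer1g, Plek and Spi1 lost it in striatum only, and Ly86 in cortex only; a difference between the regions was not tested in this respect. All members except Apbb1ip kept a positive difference.

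P2ry12 encodes an ADP receptor that guides microglial processes to injury and is a homeostatic marker. Its level was 9.18, 8.63, 7.01 and 7.35 in PVCre striatum, against 4.70, 5.42, 4.70 and 5.21 in PVwt striatum. In PVCre cortex it was 10.08, 7.11, 6.49 and 9.96, against 4.81, 4.80, 4.79 and 4.63 in PVwt cortex. Every PVCre array was above every PVwt array of its region, and replicates 1 and 4 of PVCre cortex stood about 3 units over replicates 2 and 3. The difference was 3.03 ± 0.71 (SE) in striatum (adjusted p = 0.00239) and 3.65 ± 0.71 in cortex (adjusted p = 0.000618), at least 3.07-fold and 4.09-fold.

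Tmem119, a transmembrane protein that separates microglia from other macrophages, had the lowest SD of the members within each PVCre group. Its level was 7.61, 7.65, 7.33 and 7.26 in PVCre striatum, against 5.84, 6.01, 5.86 and 5.72 in PVwt striatum. In PVCre cortex it was 7.85, 7.37, 7.32 and 7.92, against 5.73, 5.67, 5.95 and 5.88 in PVwt cortex. The groups did not overlap, and the 8 PVCre arrays were close together. The difference was 1.60 ± 0.15 in striatum and 1.81 ± 0.15 in cortex (adjusted p = 1.55e-06 and 6.69e-07), at least 2.06-fold and 2.36-fold.

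Cx3cr1 encodes the receptor for fractalkine, a chemokine made by neurons. It reached 11.05, 11.01, 9.23 and 9.70 in PVCre striatum, against 6.79, 7.09, 7.01 and 7.33 in PVwt striatum. PVCre cortex had 11.66, 9.56, 9.29 and 11.51, against 6.27, 6.38, 7.61 and 7.13 in PVwt cortex. Unlike most members, Cx3cr1 was above background in all 4 PVwt striatal arrays and in PVwt cortex replicates 3 and 4. It was higher in PVCre by 3.19 ± 0.55 in striatum (9.12-fold, adjusted p = 0.00027) and by 3.66 ± 0.55 in cortex (adjusted p = 9.2e-05).

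Siglech, a sialic acid-binding receptor of microglia, was at 10.95, 10.62, 9.0 and 9.52 in PVCre striatum, against 6.40, 6.41, 6.24 and 6.34 in PVwt striatum. In cortex the PVCre arrays had 11.57, 9.12, 8.34 and 11.68, and the PVwt arrays 6.24, 6.31, 6.63 and 6.51. No array of one line reached the other. The differences were 3.67 ± 0.63 in striatum and 3.76 ± 0.63 in cortex (adjusted p = 0.000251 and 0.000214).

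Csf1r, the receptor for the growth factors on which microglia depend for survival, was at 9.38, 8.68, 8.12 and 8.75 in PVCre striatum, against 4.87, 4.95, 4.93 and 5.06 in PVwt striatum. In PVCre cortex it was at 10.10, 8.20, 7.24 and 10.33, against 4.82, 4.94, 5.40 and 5.06 in PVwt cortex. All 8 PVwt arrays were at background and all 8 PVCre arrays above it. Its differences were 3.78 ± 0.52 and 3.91 ± 0.52 in the 2 regions (adjusted p = 4.24e-05 in striatum and 3.33e-05 in cortex), at least 4.96-fold and 6.01-fold.

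The other homeostatic members were P2ry13, Selplg and Gpr34. P2ry13, another purinergic receptor, was higher by 3.05 ± 0.74 in striatum and 3.66 ± 0.74 in cortex. Selplg, which encodes the selectin ligand PSGL-1, was higher by 4.03 ± 0.48 and 4.28 ± 0.48. Gpr34, a lysophosphatidylserine receptor on the X chromosome, was close to background. It was at 7.32, 7.12, 5.24 and 6.56 in PVCre striatum, against 5.08, 5.19, 5.32 and 5.09 in PVwt striatum, so replicate 3 of PVCre lay among the PVwt arrays. Its striatal difference was 1.39 ± 0.52 (adjusted p = 0.034). This call was lost when any 1 of 7 striatal arrays was left out, the exception being PVCre replicate 3 (adjusted p = 0.0504 to 0.103 over the 7). It was also lost with the Xist level as a covariate (adjusted p = 0.062). In cortex Gpr34 was higher by 1.76 ± 0.52 (adjusted p = 0.0102), with 2 of 4 PVCre arrays above background. This call was lost without the 6 arrays lowest in Pvalb, and also without PVCre cortex arrays 2 and 4.

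Activation-associated members were also higher in PVCre, all 6 in each region. Cd14 encodes a co-receptor for bacterial lipopolysaccharide. Its level was 9.06, 7.74, 7.50 and 7.91 in PVCre striatum, against 5.59, 5.18, 5.21 and 5.36 in PVwt striatum. In PVCre cortex it was 9.03, 7.04, 7.22 and 8.84, against 5.10, 5.47, 5.40 and 5.39 in PVwt cortex. The groups did not overlap, and all PVwt arrays were at background. The difference was 2.72 ± 0.42 in striatum and 2.69 ± 0.42 in cortex (adjusted p = 0.000108 and 0.00012), at least 3.10-fold and 3.15-fold.

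Tlr2 is a Toll-like receptor for bacterial lipoproteins. It was at 7.43, 7.05, 6.55 and 7.05 in PVCre striatum, against 4.39, 4.40, 4.53 and 4.58 in PVwt striatum. PVCre cortex had 7.33, 6.32, 6.45 and 7.29, against 4.38, 4.40, 4.78 and 4.58 in PVwt cortex. The lines were apart in each region, with replicate 2 of PVCre cortex the lowest PVCre array. Tlr2 had the smallest p of all members in striatum, with a difference of 2.55 ± 0.23 (adjusted p = 1.21e-06), and 2.31 ± 0.23 in cortex (adjusted p = 2.93e-06). Its PVCre means, 7.02 in striatum and 6.85 in cortex, lay close to background, and the bound was 1.51-fold in striatum. In cortex the value was 1.39-fold, not a strict bound, as 3 of 4 PVCre arrays were above background.

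Cd68 encodes a lysosomal membrane protein of phagocytes. It was at 11.57, 10.93, 10.32 and 10.27 in PVCre striatum, against 7.78, 7.36, 7.59 and 7.45 in PVwt striatum. PVCre cortex had 12.33, 10.49, 10.25 and 11.56, against 6.97, 7.53, 7.47 and 7.38 in PVwt cortex. Cd68 was above background in all 16 arrays, so its fold is a measured one: 9.37-fold in striatum (3.23 ± 0.39, adjusted p = 1.31e-05) and 14.1-fold in cortex (3.82 ± 0.39, adjusted p = 3.4e-06).

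Trem2 encodes a lipid-sensing receptor that microglia need for the disease-associated state. It was at 7.12, 6.54, 6.27 and 6.38 in PVCre striatum, against 5.12, 5.18, 5.42 and 5.14 in PVwt striatum. The PVCre cortical arrays had 7.18, 5.97, 5.96 and 7.77, against 5.11, 5.18, 5.25 and 5.08 in PVwt cortex. The lines did not overlap, although replicate 4 of PVCre striatum and replicates 2 and 3 of PVCre cortex were themselves within background. Its difference was 1.36 ± 0.33 in striatum (adjusted p = 0.00307) and 1.56 ± 0.33 in cortex (adjusted p = 0.00117). Against the PVwt floor the values were 1.11-fold and 1.27-fold, which are not strict bounds with PVCre arrays within background.

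C3ar1 and Fcgr3 completed this group. C3ar1, the receptor for the complement fragment C3a, was higher by 5.65 ± 0.79 in striatum and 5.39 ± 0.79 in cortex, at least 15.0-fold and 13.6-fold. Fcgr3, an Fc receptor for immunoglobulin G, was higher by 4.00 ± 0.45 in striatum (at least 10.6-fold) and by 4.17 ± 0.45 in cortex.

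The homeostatic and the activation-associated genes were both higher in every PVCre array. The contrast between the 2 sets was not tested. The median difference of the 8 homeostatic genes was 3.12 in striatum and 3.66 in cortex, and that of the 6 activation-associated genes 2.97 and 3.26. Each PVCre array was then set against the mean of the 4 PVwt arrays of its region. In striatum, the homeostatic genes averaged 3.71, 3.44, 2.06 and 2.67 above PVwt in replicates 1 to 4, and the activation-associated genes 4.14, 3.31, 2.53 and 3.02. In cortex the homeostatic genes averaged 4.48, 2.40, 1.85 and 4.51 above PVwt, and the activation-associated genes 4.29, 2.53, 2.30 and 4.20. Both sets were thus highest and lowest in the same arrays, except that in cortex the homeostatic genes were highest in replicate 4 and the activation-associated genes in replicate 1. Activation-associated minus homeostatic ranged between -0.14 and 0.47 in striatum and between -0.32 and 0.45 in cortex, with both signs in each region. In all 8 PVCre arrays, every gene of both sets was above its PVwt mean.

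**Figure D2:**
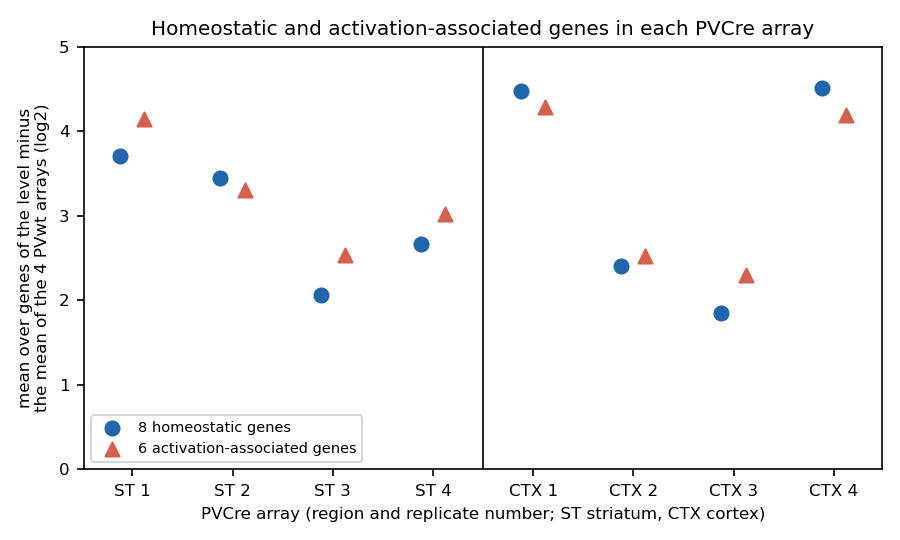
Mean over the 8 homeostatic genes (circles) and over the 6 activation-associated genes (triangles) of the log2 level in each PVCre array minus the mean of the 4 PVwt arrays of that region. The 2 sets lie within 0.47 of each other in each array, while the arrays range from 1.85 to 4.51.

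The C1q genes encode the chains of the molecule that starts the classical complement pathway. C1qa was at 8.45, 7.73, 7.52 and 8.26 in PVCre striatum, against 5.69, 6.06, 5.59 and 5.90 in PVwt striatum. Cortical PVCre values were 9.12, 8.06, 7.51 and 9.24, against 5.43, 5.71, 6.30 and 6.12 in PVwt cortex. The lines were apart, with differences of 2.18 ± 0.34 in striatum (adjusted p = 0.000129) and 2.59 ± 0.34 in cortex (adjusted p = 3.19e-05). C1qb was higher by 3.05 ± 0.50 and 3.61 ± 0.50, and C1qc, one of the genes with a PU.1 motif shown above, by 2.41 ± 0.29 and 2.54 ± 0.29.

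Of the immune signalling and lysosomal genes, 9 of 10 were higher in each region, with a median difference of 2.38 in striatum and 2.54 in cortex over all 10. Tyrobp encodes DAP12, the adaptor through which Trem2 signals. It was at 11.93, 11.20, 8.83 and 10.26 in PVCre striatum, against 4.71, 4.96, 4.75 and 5.00 in PVwt striatum. Values of PVCre cortex were 12.56, 9.29, 8.01 and 11.89, against 4.34, 4.62, 5.16 and 5.01 in PVwt cortex. No PVwt array was above background, and PVCre cortex replicates differed by up to 4.55. The difference was 5.70 ± 0.83 in striatum and 5.65 ± 0.83 in cortex (adjusted p = 6.48e-05 and 7.28e-05), at least 17.6-fold and 16.7-fold.

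Ctss encodes cathepsin S, a lysosomal protease of myeloid cells, and also held a PU.1 motif. Its level was 12.33, 11.46, 10.40 and 10.30 in PVCre striatum, against 5.95, 6.37, 5.76 and 6.58 in PVwt striatum. Cortex showed, in PVCre, 12.54, 10.64, 9.64 and 12.15, against 5.63, 5.63, 7.18 and 6.58 in PVwt cortex. The lines were separated by more than 2 units in cortex, and 1 striatal and 2 cortical PVwt arrays were above background. Ctss was higher in PVCre by 4.96 ± 0.61 in striatum and 4.99 ± 0.61 in cortex (adjusted p = 1.46e-05 and 1.45e-05).

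The remaining called genes of this group were Fcer1g, Plek, Cd53, Aif1, Laptm5, Itgam and Ptprc. Plek, which encodes pleckstrin, was higher by 4.01 ± 0.60 in striatum and 3.89 ± 0.60 in cortex, and Fcer1g, an Fc receptor adaptor, by 3.44 ± 0.54 and 3.57 ± 0.54. Aif1, which encodes the widely used microglial antigen IBA1, was higher by 2.23 ± 0.27 and 2.31 ± 0.27. Cd53 (a tetraspanin), Laptm5 (a lysosomal protein), Itgam (integrin CD11b) and Ptprc (the leukocyte antigen CD45) were higher by 1.53 to 2.77. Ptprc had the lowest striatal value against the PVwt floor, 1.04-fold, not a strict bound, as 3 of 4 PVCre arrays were above background.

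Apbb1ip, which encodes RIAM, a regulator of integrin activation, was the exception. It was at 8.29, 8.26, 7.40 and 7.09 in PVCre striatum, against 6.21, 6.67, 7.41 and 7.38 in PVwt striatum. PVCre cortical levels were 9.23, 7.58, 6.58 and 8.52, against 7.83, 7.72, 7.75 and 7.83 in PVwt cortex. The lines overlapped in both regions, and all 4 PVwt cortical arrays were above background and within 0.11 of each other. Its difference was 0.84 ± 0.47 in striatum (adjusted p = 0.145) and 0.20 ± 0.47 in cortex (adjusted p = 0.738). Without PVCre cortex replicate 1 the cortical difference was -0.22.

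Both transcription factors were higher in PVCre. Spi1, which encodes PU.1, was at 7.53, 7.30, 6.50 and 6.71 in PVCre striatum, against 5.22, 5.14, 5.32 and 5.26 in PVwt striatum. For cortex, PVCre levels were 7.56, 6.77, 6.30 and 7.48, against 5.28, 5.24, 5.33 and 5.20 in PVwt cortex. The groups did not overlap. Its difference was 1.77 ± 0.26 in both regions (adjusted p = 7.36e-05 in striatum and 7.95e-05 in cortex).

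Irf8 works with PU.1 in myeloid cells. It was at 6.79, 6.76, 6.24 and 6.42 in PVCre striatum, against 4.99, 4.94, 4.95 and 4.87 in PVwt striatum. PVCre cortex had 7.14, 6.42, 6.07 and 7.18, against 4.80, 4.89, 5.03 and 5.05 in PVwt cortex. The lines were apart, but 1 PVCre array of each region was within background. Irf8 was higher by 1.61 ± 0.21 in striatum and 1.76 ± 0.21 in cortex (adjusted p = 2.83e-05 and 1.42e-05).

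Tlr7, an endosomal receptor for single-stranded RNA, and Ly86, the partner of the Toll-like protein CD180, were both higher in PVCre. Tlr7 was at 13.19, 11.69, 9.60 and 10.96 in PVCre striatum, against 5.50, 6.14, 5.59 and 5.46 in PVwt striatum. The PVCre cortical arrays had 12.81, 10.68, 9.69 and 13.28, against 5.45, 5.29, 5.88 and 5.70 in PVwt cortex. It was higher by 5.69 ± 0.75 in striatum and 6.03 ± 0.75 in cortex, at least 30.7-fold and 37.7-fold. Tlr7 lies on the X chromosome. Over the arrays low in Xist alone, where a single PVCre array stood for each region, its difference was 5.99 in striatum and 5.20 in cortex, given as values with no replicate check. Ly86 was higher by 5.56 ± 0.77 and 4.61 ± 0.77.

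**Figure D3:**
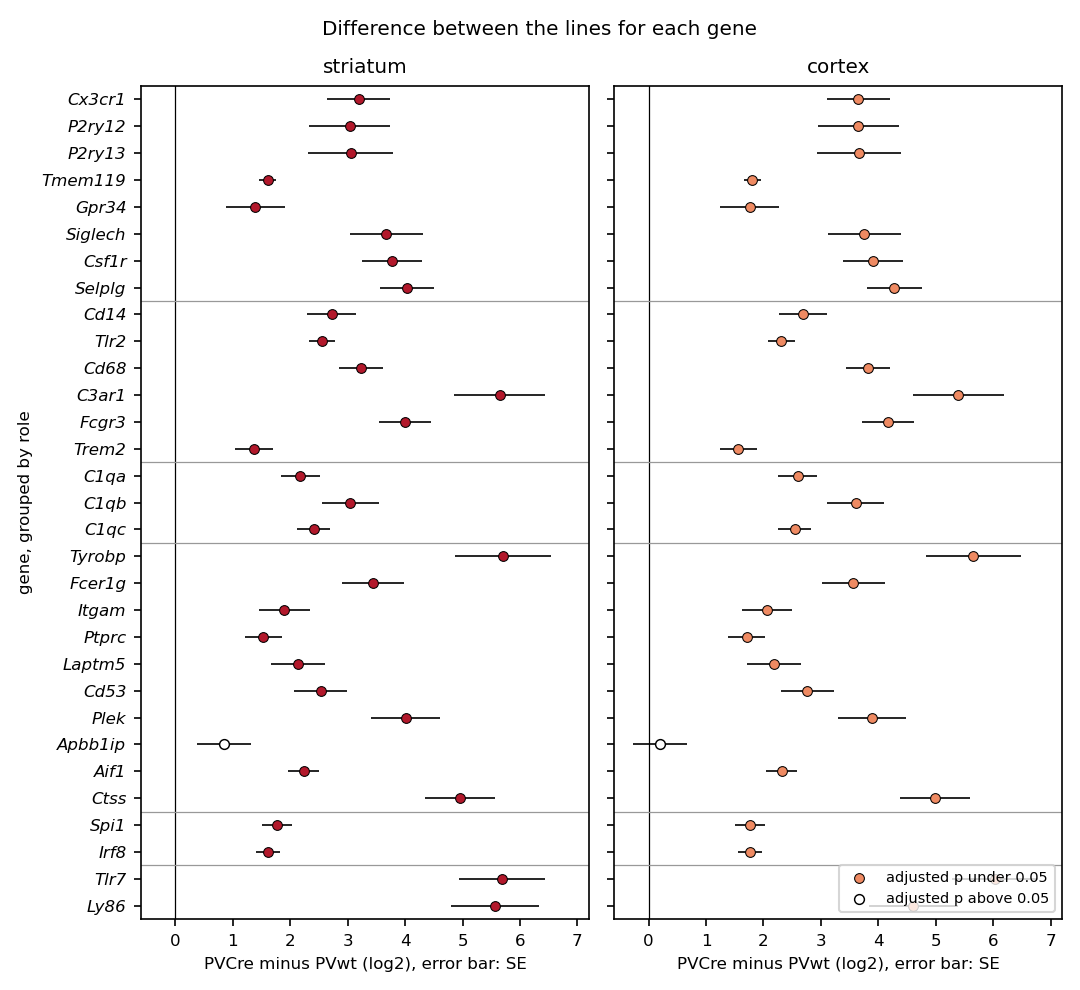
Difference PVCre minus PVwt on the log2 scale for each microglial gene in striatum (left) and cortex (right), with the SE from limma as error bars and genes grouped by role. Filled points passed an adjusted p of 0.05; the open point in each panel is Apbb1ip, at 0.84 in striatum and 0.20 in cortex.

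The effect of the line did not differ detectably between the regions. The interaction of line and region was called for 0 of the 31 members (0.195% of all genes, 0.146% higher and 0.0487% lower), with 0 at an unadjusted p under 0.05, and the interaction differences ran from -0.62 to 0.95 with SEs of 0.21 to 1.18. Striatum and cortex of the same line were also compared. In PVCre, 0 members passed (3.88% of all genes, 2.85% higher and 1.03% lower), with differences of striatum minus cortex between -0.59 and 0.87 and the smallest unadjusted p, 0.173, for C1qa. In PVwt, 0 passed (2.32% of all genes, 1.73% higher and 0.590% lower), with differences between -0.87 and 0.25. No member's 4 striatal arrays lay wholly apart from its 4 cortical arrays in PVCre (5.97% of all genes wholly above and 7.38% wholly below). In PVwt, 2 members lay wholly below (2.26%) and none above (3.73%). No unadjusted p was under 0.05 in either. When arrays were weighted by their quality, C1qa, C1qb, Cd68 and Fcgr3 were called lower in PVCre striatum, by 0.97 ± 0.28 to 1.61 ± 0.46. In that setting 2495 of 20522 genes were called, 1066 of them lower, against 797 called without weights. The 4 members were named after their values were seen.

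Spread within the PVCre groups was large and shared between genes. The median SD of the 31 genes over 4 arrays was 0.61 in PVCre striatum and 1.25 in PVCre cortex, against 0.14 in PVwt striatum and 0.18 in PVwt cortex. Over all genes tested, the median SD was 0.22 in PVCre striatum, 0.26 in PVCre cortex, 0.26 in PVwt striatum and 0.24 in PVwt cortex. All 31 members had a larger SD in PVCre than in PVwt in each region, against 40.9% of all genes in striatum and 54.2% in cortex. For all 31 the SD was also larger in PVCre cortex than in PVCre striatum, for which no share of all genes is given here. Most PVwt levels were within background; the part of this in the SDs was not tested. SDs ran from 0.20 for Tmem119 to 1.61 for C3ar1 in PVCre striatum, and from 0.31 for Tmem119 to 2.15 for Tyrobp in PVCre cortex.

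The highest and lowest PVCre arrays were shared by most members, while the full order of the 4 arrays was the same for 19 of 31 in PVCre striatum and 16 of 31 in PVCre cortex. In PVCre striatum, replicate 1 was highest for 29 members, and replicate 3 lowest for 26. In PVCre cortex, replicate 1 was highest for 18 members and replicate 4 for 13, replicate 3 was lowest for 29, and replicates 1 and 4 both exceeded replicates 2 and 3 for all 31. No share of all genes is given beside these orders, so they are not read as particular to the members. Averaged over the members, the levels were 9.45, 8.88, 7.82 and 8.33 in PVCre striatum, against 5.49, 5.65, 5.51 and 5.61 in PVwt striatum. In cortex they were 9.85, 8.03, 7.47 and 9.74 in PVCre, against 5.42, 5.47, 5.82 and 5.66 in PVwt. The lowest PVCre mean, 7.47, was above the highest PVwt mean, 5.82. Within PVwt cortex, replicate 3 was highest for 22 members.

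**Figure D4:**
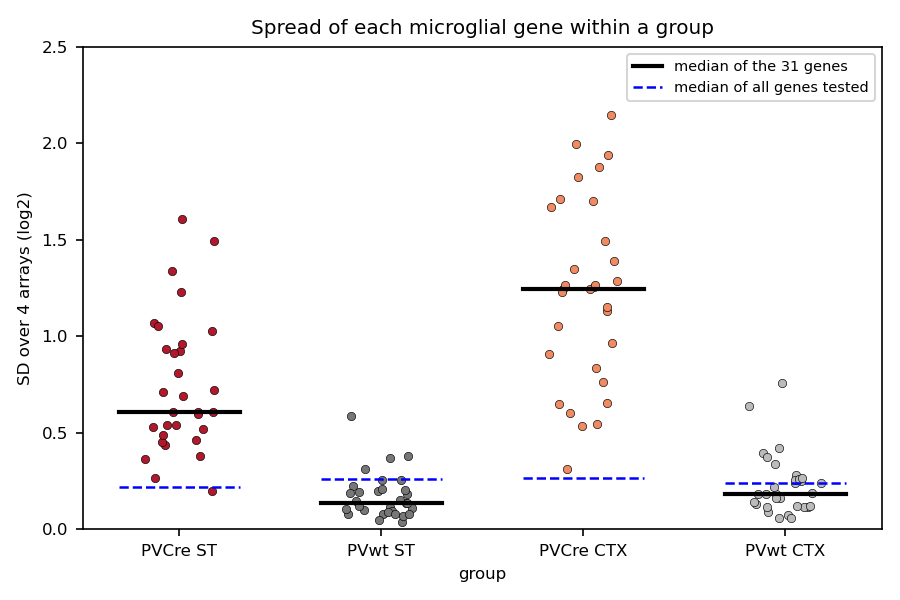
SD over 4 arrays of each of the 31 microglial genes in each group, on the log2 scale, with the median of the 31 genes (solid line) and of all genes tested (dashed line). The medians of the 31 genes are 0.61 in PVCre striatum, 0.14 in PVwt striatum, 1.25 in PVCre cortex and 0.18 in PVwt cortex.

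Markers of the sorted cells and of vessels are set beside the microglial genes here. In PVCre cortex, Pvalb was at 10.56, 7.93, 12.48 and 6.70 in replicates 1 to 4. The array with the least microglial signal, replicate 3, had the most Pvalb. The order was not inverse throughout: replicate 1 had the highest microglial mean, 9.85, and more Pvalb than replicates 2 and 4. In PVCre striatum Pvalb was at 10.20, 11.23, 11.87 and 11.66, lowest in replicate 1, where the microglial genes were highest. Pvalb was also low in PVwt replicates 3 and 4, at 7.29 and 8.40 in striatum and 6.96 and 7.19 in cortex. Their microglial means were 5.51 and 5.61 in striatum and 5.82 and 5.66 in cortex. The mean of 12 endothelial markers was 9.20 in PVCre striatum replicate 1 and 7.29 to 7.83 in replicates 2 to 4, against 6.22 to 6.50 in PVwt striatum. The mean of 10 pericyte and smooth muscle markers was 8.59 in PVCre striatum replicate 1 and lower in the others, down to 6.74, against 5.84 to 6.16 in PVwt striatum. In PVCre cortex the endothelial mean was 6.53 to 6.78, against 5.93 to 6.96 in PVwt cortex. The pericyte mean was 5.80 to 6.04 in PVCre cortex, against 5.49 to 5.93 in PVwt cortex. In PVCre cortex, 7 of 12 endothelial and 7 of 10 pericyte markers were within background in every array. In PVwt cortex these counts were 5 of 12 and 7 of 10. The part of each in the microglial result was not tested.

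Markers of other blood and border cells were examined beside the microglial genes. Of 12 perivascular macrophage markers, 11 were tested, and 10 were higher in PVCre striatum (18.3% of all genes) and 9 in PVCre cortex (19.2%). With no filter, 11 of the 12 were higher in striatum and 10 in cortex, against 22.7% and 24.1% of all genes. In PVwt, 11 of the 12 markers were within background in every array of each region. Their mean level was 6.05 to 7.45 in PVCre striatum, against 5.33 to 5.52 in PVwt striatum, and 6.14 to 6.80 in PVCre cortex, against 5.31 to 5.65 in PVwt cortex. Mrc1, the mannose receptor, averaged 7.60 in PVCre striatum against 5.16 in PVwt striatum, and Pf4 averaged 7.86 in PVCre striatum against 5.39 in PVwt striatum; both were chosen after their values were seen. Of 13 monocyte and neutrophil markers, 9 were within background in every PVCre striatal array and 10 in every PVCre cortical array. Of 11 lymphocyte markers, 8 were within background in every PVCre striatal array and 11 in every PVCre cortical array. Ly6c2, which monocytes and endothelium express, was higher in PVCre striatum by 5.22 ± 0.86 (adjusted p = 0.000183) and in PVCre cortex by 1.09 ± 0.86 (adjusted p = 0.297).

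Markers of neurons and other glia are read against all genes, of which 18.3% were higher and 35.0% lower in striatum, and 19.2% higher and 34.4% lower in cortex. Of 12 PV interneuron markers, 1 was higher and 2 lower in PVCre striatum, and 1 higher and 5 lower in PVCre cortex. Of 9 oligodendrocyte precursor markers, 8 were lower in striatum and 7 in cortex, and of 10 tested astrocyte markers 2 and 3 were lower and none higher. Of 11 oligodendrocyte markers, 4 were higher and 1 lower in striatum, and 7 higher and none lower in cortex. Of 12 pan-neuronal markers, 1 was higher and 3 lower in striatum, and 1 higher and 6 lower in cortex. Of 7 ependymal markers, 5 were higher in striatum, and 3 higher and 1 lower in cortex. The relation of these changes to the microglial genes was not tested.

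Further genes of the same biology were taken from lists. Of 17 tested genes that are also homeostatic in microglia, 12 were higher in PVCre in each region and none lower. Among all genes, 18.3% were higher in striatum and 19.2% in cortex. With no filter 16 of 21 were higher in each region and none lower, against 22.7% and 24.1% of all genes higher. The median difference of the 17 was 1.21 in striatum and 1.17 in cortex. Hpgds, a prostaglandin D synthase, was higher by 4.02 ± 0.72 in striatum and 4.35 ± 0.72 in cortex, at least 6.50-fold and 8.02-fold. Olfml3, a secreted protein, was higher by 1.44 ± 0.12 and 1.14 ± 0.12, P2ry6, a UDP receptor, by 1.80 ± 0.28 and 1.72 ± 0.28, and Inpp5d, which encodes the phosphatase SHIP1, by 1.96 ± 0.34 and 2.24 ± 0.34.

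Genes of acute activation (cytokines, chemokines, and NF-kB or early response genes) were higher throughout. All 22 tested were higher in PVCre in both regions, against 18.3% of all genes in striatum and 19.2% in cortex. With no filter 27 of 27 were higher in striatum and 25 of 27 in cortex, against 22.7% and 24.1% of all genes. Of the 27, 3 were within background in every PVCre striatal array and 4 in every PVCre cortical array. In PVwt, 18 were within background in every striatal array and 19 in every cortical array. The median difference of the 22 was 2.89 in striatum and 3.21 in cortex. Il1a, which encodes interleukin-1 alpha, averaged 14.96 ± 1.51 (SD, n = 4) in PVCre striatum against 4.67 ± 0.05 in PVwt striatum, and 14.25 ± 2.31 in PVCre cortex against 4.79 ± 0.17 in PVwt cortex. Its difference was 10.29 ± 0.90 (SE) in striatum (adjusted p = 8.71e-07) and 9.45 ± 0.90 in cortex (adjusted p = 1.93e-06). No PVwt array was above background in either region, so the fold was at least 371-fold in striatum and 234-fold in cortex.

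Other genes of acute activation showed the same direction. Atf3, a stress-induced transcription factor, was higher by 4.64 ± 0.33 in striatum and 4.83 ± 0.33 in cortex, Ccl2, a monocyte chemokine, by 4.28 ± 0.32 and 3.34 ± 0.32, and Zfp36, which encodes an mRNA-destabilizing protein, by 3.10 ± 0.25 and 3.34 ± 0.25. Chosen after their values were seen, the chemokine gene Ccl3 was higher by 8.88 ± 0.84 and 8.55 ± 0.84, and the cytokine gene Tnf by 5.64 ± 0.92 and 5.14 ± 0.92. Averaged over the 27 genes, the level was 9.79, 9.18, 8.63 and 8.77 in PVCre striatum, against 5.80 to 5.97 in PVwt striatum. Cortical PVCre values were 9.52, 8.52, 7.87 and 9.69, against 5.83 to 6.05 in PVwt cortex. This mean was lowest in replicate 3 of each PVCre group, as was the mean of the microglial genes. Fos and Dusp1, also chosen after their values were seen, are made by many cell types, neurons included, and were above background in all PVwt arrays.

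**Figure D5:**
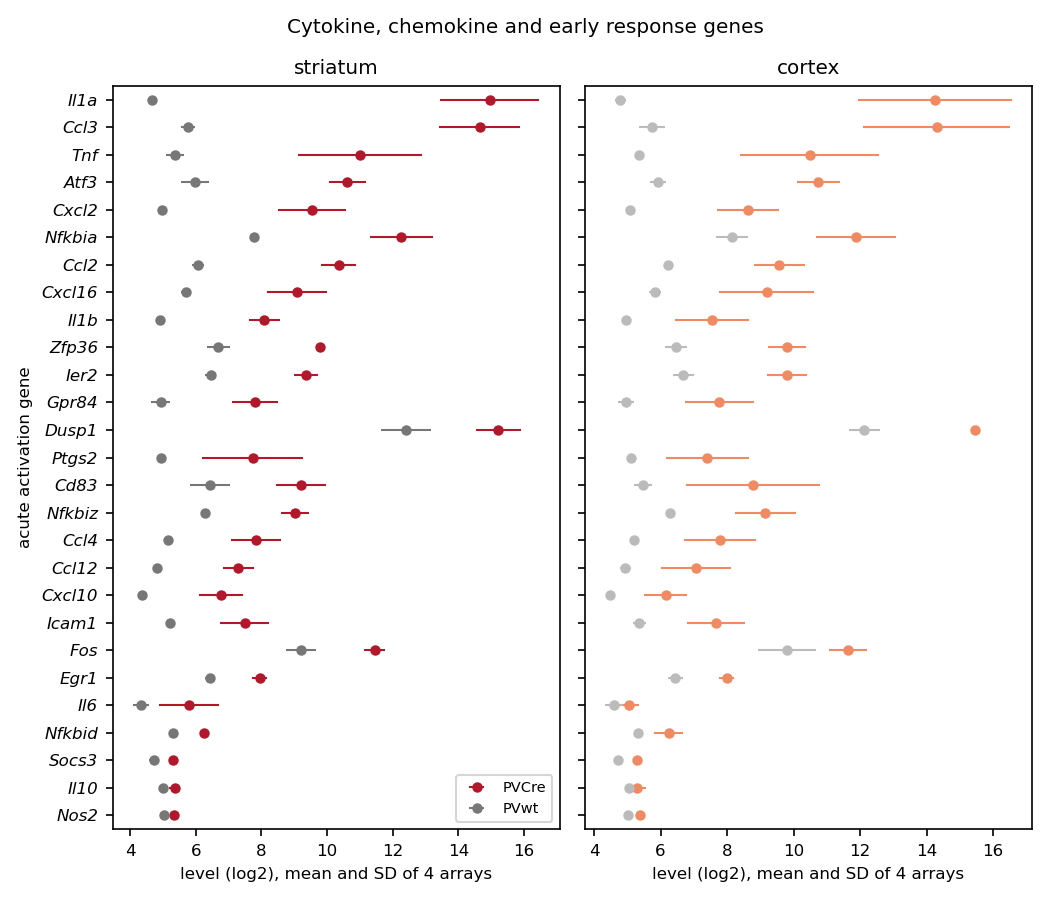
Log2 level, as mean and SD of 4 arrays, of 27 acute activation genes in striatum (left) and cortex (right), with PVCre in red or orange and PVwt in grey. The genes are ordered by their striatal difference, from Il1a (14.96 in PVCre against 4.67 in PVwt) at the top, and Nos2, Il10 and Socs3, with the smallest differences, were within background in every array.

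Genes of the disease-associated microglial state were called in both directions. Of 21 tested, 7 were higher and 3 lower in PVCre striatum, and 9 higher and 1 lower in PVCre cortex, with medians of 0.37 and 0.49. Over all genes, 18.3% were higher and 35.0% lower in striatum, and 19.2% and 34.4% in cortex. Lyz2, which encodes lysozyme, was higher by 2.67 ± 0.38 in striatum and 1.12 ± 0.38 in cortex, Fth1, the ferritin heavy chain gene, by 1.45 ± 0.22 and 1.32 ± 0.22, and Lgals3, which encodes galectin-3, by 0.73 ± 0.09 and 0.56 ± 0.09. Ctsl, which encodes cathepsin L, was lower by a difference of -1.82 ± 0.26 in striatum (adjusted p = 4.83e-05) and -0.59 ± 0.26 in cortex (adjusted p = 0.0668). Apoe, which many glia express, differed by 0.06 ± 0.60 in striatum (adjusted p = 0.94) and by -0.17 ± 0.60 in cortex (adjusted p = 0.819); it was chosen after its values were seen.

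Receptor pathways around the members were also counted. Beside them, 18.3% of all genes were higher and 35.0% lower in striatum, and 19.2% and 34.4% in cortex. Of 13 tested Toll-like receptor pathway genes, 6 were higher and 2 lower in PVCre striatum, and 5 higher and none lower in PVCre cortex. Cd180, the receptor that pairs with Ly86, was higher by 3.18 ± 0.63 in striatum and 3.27 ± 0.63 in cortex, Tlr9, a DNA receptor, by 3.03 ± 0.47 and 2.87 ± 0.47, and Irf5, a transcription factor downstream of these receptors, by 1.51 ± 0.24 and 1.79 ± 0.24. Tyrobp and Fcer1g signal through ITAM motifs. Of 9 tested genes of a list drawn around this pathway, 7 were higher in each region, and 1 lower in striatum. The list is not limited to genes that signal through an ITAM, so the count is not one of ITAM signalling. Blnk, a linker protein, was higher by 3.41 ± 0.65 and 3.61 ± 0.65. Of 11 tested myeloid transcription factors, 8 were higher in each region and none lower, with Cebpa higher by 3.01 ± 0.41 and 3.26 ± 0.41 and Runx1 by 2.29 ± 0.31 and 2.17 ± 0.31. With no filter, 22.7% of all genes were higher in striatum and 24.1% in cortex. Of 19 Toll-like receptor pathway genes, 10 were then higher and 2 lower in striatum, and 9 higher in cortex. Of 19 genes of the ITAM list, 14 were higher and 1 lower in striatum, and 15 higher in cortex. Of 13 myeloid transcription factors, 9 were higher in each region.

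A list of ligands of microglial receptors was counted as well. It is not limited to ligands of the members: the receptors of Tgfb1 and Cd200, named below, are not members. Of 8 tested genes, 1 was higher and 3 lower in PVCre striatum (18.3% and 35.0% of all genes). In PVCre cortex 1 was higher and 2 lower (19.2% and 34.4%), and the counts in both regions were close to those shares. The gene that was higher in both regions was Tgfb1, a growth factor that maintains homeostatic microglia, by 2.07 ± 0.36 in striatum and 1.88 ± 0.36 in cortex. Cd200, a neuronal protein that restrains microglia, was at 8.78 ± 0.39 (SD, n = 4) in PVCre striatum against 10.42 ± 0.83 in PVwt striatum, and at 7.27 ± 0.69 in PVCre cortex against 10.22 ± 0.83 in PVwt cortex (adjusted p = 0.00818 and 0.000124).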

How the data were processed

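RNA of sorted tdTomato-positive cells was measured on 16 Affymetrix mouse transcriptome arrays. The authors deposited log2 levels: per the submitters' processing notes they come from RMA as run by Affymetrix Expression Console. The sources used here do not state its version or the genome build of the array. Of 72688 probe sets, 31258 transcript clusters had 1 gene in the platform annotation, 1492 had several and 33206 had none listed. Symbols were updated through RefSeq's gene table. Per gene, the cluster with the highest mean stood for it (30783 genes). The lowest 33.3% by mean (under 5.53) were left out, leaving 20522.

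The linear model of limma (version 3.58.1, R 4.3.3) had a mean for each group and used all 16 arrays, with moderated variances from eBayes. P-values were adjusted by Benjamini-Hochberg over all 20522 genes, with a threshold of 0.05. Errors of differences are SEs, and those of levels SDs over 4 arrays. The members and lists were chosen with earlier results of these data known, so no list was tested as a set. Each replicate was a pool of sorted cells, so a p-value reflects only how pools differ. The number of arrays limits the precision. In a simulation over 20522 genes, 95% of genes changed by 3 were recovered for the striatal line comparison and 96% for the cortical one. For the interaction, 28% of genes changed by 1 were recovered. The changed genes were drawn at random from all genes, with each gene's SD pooled over the groups. The members' median SD was 0.61 in PVCre striatum and 1.25 in PVCre cortex, against 0.22 and 0.26 for all genes. These rates therefore do not measure recovery for the members.

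Named genes were all 31 members, with every array in full for 14 fixed by name, and up to 4 genes of each list with the smallest p in striatum; exceptions are marked. Sample titles number the replicates 1 to 4 in every group, but the descriptions of the PVCre cortical arrays carry other numbers, so pairs were checked by title only. Same-numbered PVwt arrays of the 2 regions correlated at r = 0.756, 0.579, 0.699 and 0.622 after group means were removed. Striatal replicates 1 and 3 matched best to the cortical array of the same number, but 2 and 4 matched best to cortical 1 and 3. In each other comparison some same-numbered arrays correlated negatively, and the lines are different mice. In PVCre, Xist was low only in replicate 2 of each region, and in PVwt it was high only in replicate 3 of each. Whether the same mice gave both regions was not tested, so the regions are not taken as independent of each other. The main fit paired no arrays, and the replicate number was a block only in alternatives. Alternatives were other filters, normalizations, priors, array weights, the replicate number as a block, covariates and each array left out. Python 3.11.15 was used with numpy 2.4.6 for tables, pandas 2.3.3 for joins and matplotlib 3.10.9 for plots.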

Additional observations from a re-analysis of the deposited data

Results flagged for a closer look

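Of 124 combinations of a microglial gene and a group, 1 held an array that lay far from the other 3 by Dixon's criterion. P2ry12 was at 4.63 in PVwt cortex replicate 4, against 4.79 to 4.81 in the other 3 arrays, a gap of 0.923 of the group's range. All 4 values were within background. Chance gives such a gap in about 1 of 20 groups of 4 arrays.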

How the results depend on the processing

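The counts of 30 called members in each region were kept within 1.5 times under every alternative tried except the control separation as a covariate in striatum (13, with a median difference of 2.21), and with it 20 were called in cortex. A required difference above 1 gave 20 in striatum and 24 in cortex. Leaving out 1 array gave 29 to 30 members in striatum and 30 in cortex, with medians of 2.66 to 3.30 and 3.09 to 4.00, and 0 to 0 called for the interaction and both region comparisons. Leaving out the 6 arrays lowest in Pvalb gave 29 in each region, and leaving out PVCre cortex arrays 2 and 4 gave 30 and 29; Gpr34 was the call lost. In PVCre, striatum minus cortex had 4 members called with array weights and 1, Ly86, over the arrays low in Xist, where a single PVCre array stood for each region and was assumed to vary like the others. Apbb1ip turned to -0.32 in striatum and -0.86 in cortex with the control separation as a covariate, and in cortex to -0.21 over the arrays low in Xist and, leaving out 1 array at a time, to between -0.22 (without PVCre cortex replicate 1) and 0.66 (without PVCre cortex replicate 3); the cause was not tested. With the replicate block, 30 members were called in each region; the block changed no member's call. The lines share only replicate numbers. Added after the data were seen, a replicate block within each line called 0 members between regions. Quantile normalization raised the share of higher among all called genes to 49.3% in striatum and 52.3% in cortex, against 34.4% and 35.9%, and moved the median of all genes to -0.02 and 0.02; 29 and 30 members were then called. Most PVwt levels were within background, so the fitted differences have no measured size there. Only the bounds limit the fold, where all 4 PVCre arrays were above background. All comparisons rest on 4 pools a group, and 8 of the 16 pools were high in Xist.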
